A study of Mus musculus with 7 samples.

Results

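The genes described here make, break down, bind or store retinoic acid (RA) or its precursor retinol. They are *Aldh1a1*, *Aldh1a2*, *Rdh10*, *Dhrs3*, *Cyp26a1*, *Cyp26b1*, *Crabp1*, *Crabp2* and *Lrat*, a list of genes of the retinoid pathway given by name. All 9 were found among the 21928 genes of the tables, and 8 of them were among the 13630 genes tested, because *Cyp26a1* did not reach the abundance filter, set at 1 TPM or more (transcripts per 1000000, corrected for transcript length) in 3 or more of the 7 libraries.

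Ribosome-depleted, stranded total RNA was sequenced from whole testes of 4 wild-type and 3 *Meioc*-null male pups, with 1 library per pup and the RNA of 1.5 testes of that pup in each. Both groups were C57BL/6N mice, and the *Meioc*-null pups carried the *Meioc* tm1.1Dpc allele after backcrossing to that strain. All pups of both genotypes received WIN 18,446 at 0.1 mg per g of body weight daily from P2 to P8 and RA at 0.0125 mg per g on P9, and the testes were taken 6.75 days after the RA, when the germ cells are enriched for preleptotene spermatocytes. The comparison asks how loss of the germ-cell protein MEIOC alters transcript abundance at meiotic entry. The authors conclude that MEIOC raises the competence of germ cells to start meiosis, without being strictly required for it.

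Retinol is oxidised to retinal by RDH10, a step that DHRS3 runs in reverse, and retinal is oxidised irreversibly to RA by the ALDH1A enzymes. The CYP26 enzymes break RA down, the CRABP proteins bind it in the cytoplasm, and LRAT esterifies retinol for storage. RA acts through nuclear RAR and RXR receptors, and in the testis it starts spermatogonial differentiation and induces *Stra8* and *Meiosin* at meiotic entry. ALDH1A1 is known mainly from Sertoli cells of the testis and ALDH1A2 mainly from germ cells. WIN 18,446 blocks the ALDH1A enzymes, so every testis measured here had gone through a period without its own RA synthesis and then a dose of RA given from outside.

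Both *Cyp26a1* and the receptor gene *Rarb* are textbook direct targets of RA, and each carries an RA response element beside its transcription start. Their RefSeq promoters (GRCm38.p6, 250 bases before to 50 after the start) are shown with the promoter of *Aldh1a2*, the gene on which the comparison of genotypes turns. Capitals mark a direct repeat, on either strand, of the half-site GGTCA or GTTCA with 6 bases between the copies, which is the spacing called DR5. The *Cyp26a1* promoter lies at chr19:37697558-37697857 on the plus strand, the *Rarb* promoter at chr14:16575427-16575726 on the minus strand and the *Aldh1a2* promoter at chr9:71215539-71215838 on the plus strand. Each is printed 5′ to 3′ along its gene.
Cyp26a1: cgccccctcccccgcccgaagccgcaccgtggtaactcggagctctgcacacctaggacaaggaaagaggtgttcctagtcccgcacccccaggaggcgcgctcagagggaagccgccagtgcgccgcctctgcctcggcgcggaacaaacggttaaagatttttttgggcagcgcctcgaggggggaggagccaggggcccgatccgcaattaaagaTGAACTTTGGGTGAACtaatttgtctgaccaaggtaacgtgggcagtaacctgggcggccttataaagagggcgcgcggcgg
Rarb: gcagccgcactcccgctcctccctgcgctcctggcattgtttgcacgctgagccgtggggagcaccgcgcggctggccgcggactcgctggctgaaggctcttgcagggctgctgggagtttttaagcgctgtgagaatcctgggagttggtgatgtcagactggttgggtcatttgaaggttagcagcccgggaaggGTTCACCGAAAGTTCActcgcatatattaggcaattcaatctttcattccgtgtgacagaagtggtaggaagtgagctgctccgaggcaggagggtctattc
Aldh1a2: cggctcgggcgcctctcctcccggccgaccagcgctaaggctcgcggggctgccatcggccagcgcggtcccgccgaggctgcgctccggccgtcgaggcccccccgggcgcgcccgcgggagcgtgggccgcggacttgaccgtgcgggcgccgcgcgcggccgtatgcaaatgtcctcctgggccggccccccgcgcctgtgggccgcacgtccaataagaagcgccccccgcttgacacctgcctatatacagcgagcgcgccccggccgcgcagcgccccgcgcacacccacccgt

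The DR5 letters were found in 81 of 32851 mouse promoters of this length (0.247%). In *Cyp26a1* they ran on the minus strand from base -32 to -17 counted from the start, and in *Rarb* on the plus strand from -52 to -37. Promoters were given for 7 of the 9 genes, all but *Rdh10* and *Crabp2*, and *Cyp26a1* was the only one of those 7 with the DR5 letters. None of the 7 held a direct repeat of the same half-sites at the DR2 spacing (3 bases between copies, 0.399% of promoters) or the DR1 spacing (2 bases between copies, 0.402%). The STRA8-type motif CNCCTCAG, held by 7.94% of promoters on either strand, was in the second of 2 *Aldh1a1* promoters (bases -177 to -170). Among the promoters of the other retinoid metabolism genes it was in those of *Stra6* (-155 to -148) and *Rpe65* (-87 to -80). The E2F-type motif GGCGGGAA (2.19%) was in none of the 7. A match describes letters in a window and is not a measured binding site. Both genes with the element lay near the detection limit in these testes, as the values given for each of them show.

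Depth was 12537852 to 20552702 estimated counts per wild-type library and 13448293 to 18124443 per *Meioc*-null library. *Meioc* itself was lower in every *Meioc*-null library than in any wild-type library, at 628 ± 110 CPM (counts per 1000000 after TMM normalization, mean ± SD, n = 4) in wild type and 371 ± 62.1 (n = 3) in *Meioc*-null testes, with a log2 fold change of 0.76 and an edgeR quasi-likelihood adjusted p of 0.021. Its call was kept in 2 of 7 fits that left out a library, with adjusted p up to 0.064, and its log2 fold change stayed between 0.63 and 0.88 in those fits. Each fold change in what follows divides wild type by *Meioc*-null, so that a positive value is higher in wild type, and a gene is called at an adjusted p under 0.05 over all tested genes. Of the 13630 tested genes, 1513 (11.1%) were called, 1059 (7.77%) higher and 454 (3.33%) lower in wild type. These are whole testes, whose staging the authors verified by histology, and levels of germ-cell markers differed between the groups. Summed CPM of 9 germ-cell markers was 2436 to 2648 in wild type and 1714 to 1856 in *Meioc*-null testes, and 4 of the 9 (*Dazl*, *Mael*, *Tex14* and *Tex101*) were called higher in wild type. *Dazl*, at 1105 against 738 CPM on average, was the largest part of the sum. Of the 9 log2 fold changes, 7 were positive, with *Rbm46* level at 0.022, and 2 were negative. The negative ones were *Tdrd1* (-0.24) and *Dnd1* (-0.76, without overlap, edgeR adjusted p = 0.057), neither called. Summed CPM of 9 undifferentiated spermatogonia markers went the other way, at 209 to 256 against 316 to 489, and 3 of 8 tested (*Zbtb16*, *Nanos3* and *Lin28a*) were called lower in wild type. Of the 8 log2 fold changes, 7 were negative, with *Gfra1* at -0.14, and 1 was positive (*Id4*, 0.15). Neither *Gfra1* nor *Id4* was called. Of 12 genes listed for pachytene and later germ cells, 3 were tested, and they did not move one way. *Hspa2* and *Meiob*, the latter active from early meiotic prophase, were called higher in wild type, while *Piwil1*, a pachytene gene, was not called, at 3.20 ± 0.830 CPM in wild type and 5.17 ± 1.48 in *Meioc*-null testes without overlap (log2 fold change -0.70, adjusted p = 0.11). The summed CPM of the 12 was 58.6 to 83.7 against 51.4 to 52.3, and *Tnp2*, *Prm1* and *Prm2* were at 0 in all libraries. *Hspa2*, at 63.8 against 44.2 CPM on average, was the largest part of that sum. Summed CPM of 18 Sertoli markers overlapped, at 8166 to 8373 in wild type and 7845 to 8961 in *Meioc*-null testes, with 1 of 18 called (*Kitl*, lower in wild type). The largest parts of this sum were *Clu* (3587 against 4015 CPM on average) and *Ctsl* (1949 against 1752). Of the 18 log2 fold changes, 8 were positive and 10 negative. In such bulk samples, fewer cells of a type and less RNA per cell cannot be told apart.

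Levels of the 9 genes spanned several orders of magnitude on the TPM scale, which corrects for transcript length and allows genes to be set side by side. *Aldh1a1* led in both groups, at 936 ± 62.3 TPM (n = 4) in wild type and 1097 ± 48.3 (n = 3) in *Meioc*-null testes. *Aldh1a2* followed at 163 ± 11.6 and 114 ± 14.0 TPM. *Crabp1* stood at 64.0 ± 15.1 and 75.6 ± 7.82 TPM and *Cyp26b1* at 42.8 ± 3.30 and 61.9 ± 12.8 TPM. The ranges of *Crabp1* and *Cyp26b1* were apart in wild type and overlapped in *Meioc*-null testes, so their order is not set in the latter. *Dhrs3* and *Rdh10*, the opposing enzymes of the first step, were alike in wild type at 12.2 ± 2.84 and 11.8 ± 4.15 TPM, and their ranges overlapped. In *Meioc*-null testes *Dhrs3* was at 16.1 ± 0.798 TPM and *Rdh10* at 10.9 ± 3.02 TPM, with no overlap. *Crabp2* (4.52 ± 1.49 and 2.90 ± 0.152 TPM), *Lrat* (1.49 ± 0.387 and 1.30 ± 0.444 TPM) and *Cyp26a1* (0.140 ± 0.0466 and 0.269 ± 0.0293 TPM) closed the order, each apart from its neighbours in both groups.

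**Figure D1:**
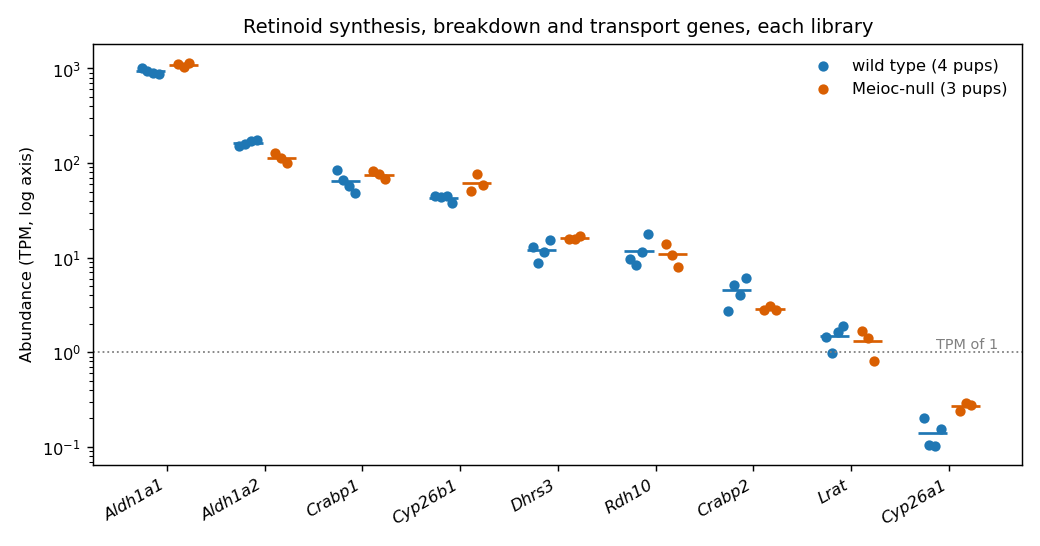
Abundance of the 9 retinoid genes in each library, in TPM on a log axis, with a point per library and a bar at the mean of the 4 wild-type (blue) or 3 *Meioc*-null (orange) pups. *Aldh1a1* stands highest in both groups, *Cyp26a1* lies below 1 TPM in all 7 libraries, and the genotypes are close together beside the distance between genes.

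Of the 8 genes tested, 1 was called higher in wild type (*Aldh1a2*) and 0 were called lower by edgeR, beside 11.1% of all tested genes called. At an unadjusted p under 0.05 there were 3 of 8 (*Aldh1a2*, *Cyp26b1* and *Crabp2*), beside 30.3% of all tested genes, so the share of these genes called is close to that of the transcriptome. The median log2 fold change of the 8 was 0.20, with 5 positive and 3 negative, and that of all tested genes was -0.0065. The CPM of the groups did not overlap for 1 of the 8, again *Aldh1a2*, beside 26.2% of all tested genes.

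Among the synthesis genes, *Aldh1a2* rose in wild type relative to *Meioc*-null testes. *Aldh1a2* (chr9:71215789-71296243, plus strand, GRCm38) encodes a retinal dehydrogenase that makes RA and is the main source of RA in the early embryo. Its CPM was 219, 262, 279 and 287 in wild-type replicates 1 to 4 and 179, 139 and 145 in *Meioc*-null replicates 1 to 3. Every wild-type library was above every *Meioc*-null library, and the nearest pair was wild-type replicate 1 and *Meioc*-null replicate 1. Means were 262 ± 30.1 (n = 4) and 154 ± 21.5 (n = 3), a 1.70-fold difference (log2 fold change 0.77, SE 0.12, 95% interval 0.50 to 1.03, edgeR adjusted p = 0.011). The difference lost its call without *Meioc*-null replicate 3 (log2 fold change 0.72, adjusted p = 0.056), while its size stayed between 0.70 and 0.88 whichever library was left out. Germ-cell marker sums were also higher in wild type, and undifferentiated spermatogonia marker sums lower, and their part in the *Aldh1a2* difference was not tested.

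*Aldh1a1* (chr19:20492715-20643465, plus strand) encodes the other main retinal dehydrogenase of the testis. Its CPM was 1204, 1259, 1190 and 1160 in wild type and 1226, 1023 and 1322 in *Meioc*-null testes, and the 3 *Meioc*-null values enclosed the 4 wild-type values. Means were 1203 ± 41.5 and 1190 ± 153, with a log2 fold change of 0.016 (95% interval -0.18 to 0.22, edgeR adjusted p = 0.92). The sign depended on the scaling, since the log2 fold change was -0.061 with library size alone and -0.23 on log2(TPM + 1), where the median of all tested genes was itself at -0.23. On the TPM scale the groups were apart, at 883 to 1023 in wild type and 1045 to 1140 in *Meioc*-null testes. *Aldh1a1* has a near-identical neighbour, *Aldh1a7*, among which kallisto divides reads by estimation, so values of either are uncertain to that extent. *Aldh1a7* was at 66.8 ± 10.2 CPM in wild type and 51.6 ± 7.21 in *Meioc*-null testes (log2 fold change 0.37, adjusted p = 0.11).

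The makeup of the ALDH1A transcripts thus differed between the groups. In each library the TPM of *Aldh1a1*, *Aldh1a2* and *Aldh1a3*, another retinal dehydrogenase gene, was summed, and the share of each was taken, a measure that scaling between libraries cannot move. *Aldh1a2* made up 12.6%, 14.3%, 15.8% and 16.4% of the sum in wild type and 10.3%, 9.62% and 8.0% in *Meioc*-null testes. The groups were apart, with means of 14.8% ± 1.67 (n = 4) and 9.30% ± 1.17 (n = 3). *Aldh1a1* held 82.8% to 91.1% and *Aldh1a3* 0.748% to 0.996% over all 7 libraries. Put as a ratio, there were 5.78 ± 0.802 *Aldh1a1* transcripts per *Aldh1a2* transcript in wild type and 9.78 ± 1.43 in *Meioc*-null testes, with no overlap. Since *Aldh1a1* was level on CPM, the share and the ratio restate the *Aldh1a2* difference. They set side by side genes known mainly from different cell types, and the part of cell makeup was not tested.

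*Rdh10* (chr1:16105774-16133734, plus strand) encodes the retinol dehydrogenase that supplies retinal. Its CPM was 24.7, 24.4, 32.6 and 50.7 in wild type and 33.6, 23.0 and 20.1 in *Meioc*-null testes. The groups overlapped, and wild-type replicate 4 stood above the other 6 libraries. The log2 fold change was 0.38 (SE 0.27, 95% interval -0.22 to 0.98, edgeR adjusted p = 0.37).

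*Dhrs3* (chr4:144892827-144928209, plus strand) encodes a short-chain reductase that returns retinal to retinol and whose gene is itself induced by RA in many tissues. Its CPM was 14.6, 10.8, 13.8 and 18.1 in wild type and 14.8, 13.3 and 17.2 in *Meioc*-null testes, overlapping throughout. The log2 fold change was -0.073 (SE 0.17, 95% interval -0.46 to 0.31, adjusted p = 0.80), and its sign turned when wild-type replicate 2 or *Meioc*-null replicate 3 was left out.

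Below the level of the gene, the estimates for the 3 annotated protein-coding transcripts of *Dhrs3* were uneven between libraries. Dhrs3-202 was at 0.675, 3.10, 5.34 and 5.76 TPM in wild type and 9.07, 10.1 and 6.47 TPM in *Meioc*-null testes, so the groups did not overlap on that scale. The TPM scale itself lowered wild type, since the median of all tested genes was at -0.23 on log2(TPM + 1). Estimated counts of Dhrs3-202, before any normalization, overlapped, with 95.56 in wild-type replicate 4 and 87.4 in *Meioc*-null replicate 3. These counts are not adjusted for depth, which was 20552702 estimated counts in the first of these libraries and 18086483 in the second. Dhrs3-207 was at 8.80, 3.24, 2.72 and 6.10 TPM in wild type and 3.18, 2.14 and 6.89 TPM in *Meioc*-null testes, and the groups overlapped. Dhrs3-206 was nearly level, at 2.40 to 3.64 TPM in wild type and 3.30 to 3.66 TPM in *Meioc*-null testes. The share of the gene's TPM that Dhrs3-202 carried was 5.18%, 35.5%, 47.0% and 37.2% in wild type and 58.3%, 64.0% and 38.0% in *Meioc*-null testes. These shares overlapped, and wild-type replicate 1 stood far below the rest. These are values with no test, because kallisto assigns reads that transcripts share by estimation.

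**Figure D2:**
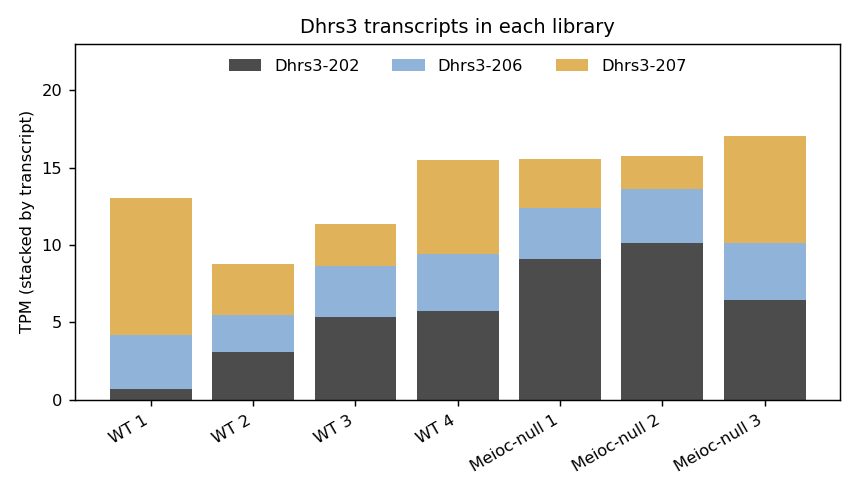
TPM of the 3 *Dhrs3* transcripts in each library, stacked so that the height of a bar is the TPM of the gene. Dhrs3-202 (dark) rises from 0.675 TPM in wild-type replicate 1 to 10.1 TPM in *Meioc*-null replicate 2, while Dhrs3-206 (blue) is nearly level in all 7 libraries.

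Of the 2 breakdown genes listed here, *Cyp26b1* was abundant and *Cyp26a1* was close to undetected. *Cyp26b1* (chr6:84571414-84593908, minus strand) encodes the RA hydroxylase that protects fetal male germ cells from RA. Its CPM was 172, 189, 194 and 164 in wild type and 189, 247 and 224 in *Meioc*-null testes. *Meioc*-null replicate 1 lay within the wild-type range and the other 2 lay above it. Means were 180 ± 14.4 (n = 4) and 220 ± 29.6 (n = 3), with a log2 fold change of -0.29 (SE 0.10, 95% interval -0.53 to -0.058, edgeR unadjusted p = 0.02), and the difference was not called after adjustment (adjusted p = 0.098). Which side of the threshold it took depended on the processing. It was called lower in wild type by DESeq2 on the same genes (log2 fold change -0.30, adjusted p = 0.049), with library size alone (-0.37, 0.042), by limma on log2(TPM + 1) (-0.51, 0.032) and log2(TPM + 0.1) (-0.52, 0.033), and without *Meioc*-null replicate 1 (-0.39, 0.033). In 3 of these fits the median of all tested genes was itself shifted, to -0.23 and -0.25 on the TPM scales and -0.084 with library size alone. With each library centred on its median, limma on log2(TPM + 1) gave -0.30 and no call (adjusted p = 0.11). On TPM, where that shift applies, the groups were apart, with a highest wild-type value of 45.1 and a lowest *Meioc*-null value of 51.2, while on CPM they overlapped. Transcripts Cyp26b1-205 and Cyp26b1-204 carried all of the estimate, with Cyp26b1-205 at 75.9% to 81.4% of the gene's TPM over the 7 libraries, and the other annotated transcripts were at 0.

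*Cyp26a1* (chr19:37697798-37701536, plus strand), the gene with the DR5 letters shown above, is known for a strong induction by RA. It had 3, 2, 2 and 4 counts in wild type and 5, 4 and 6 in *Meioc*-null testes, where 3 counts, taken here as the detection floor, correspond to 0.151 to 0.237 CPM. Its CPM was 0.135 to 0.237 in wild type and 0.267 to 0.326 in *Meioc*-null testes. Summed over libraries there were 11 and 15 counts, a ratio of wild type to *Meioc*-null of 0.606 with an exact 95% Poisson interval of 0.252 to 1.41, which covers counting error only. The difference was not detectable at this depth. *Rarb*, whose promoter holds the same element, had 12 and 16 counts in all, a ratio of 0.620 (0.268 to 1.40). Its counts were less even, at 1, 2, 3 and 6 in wild type and 8, 8 and 0 in *Meioc*-null testes. That spread between libraries is not covered by its Poisson interval. So at 6.75 days after the injected RA both classical RA targets were at or near the floor in both genotypes.

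The fold changes of *Aldh1a2*, for RA synthesis, and *Cyp26b1*, for RA breakdown, had opposite signs, the second not called. Their ratio within a library was computed after both values had been seen. It was 3.37, 3.61, 3.79 and 4.61 in wild type and 2.50, 1.48 and 1.71 in *Meioc*-null testes, with means of 3.85 ± 0.538 and 1.90 ± 0.536 and no overlap. Because it was chosen for its values, the ratio is a description and is given no test. The planned ratios of *Crabp1* to *Crabp2* (7.83 to 30.9 in wild type and 23.8 to 29.4 in *Meioc*-null testes) and of *Cyp26b1* to *Cyp26a1* (332 ± 113 and 229 ± 27.0) overlapped between the groups.

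**Figure D3:**
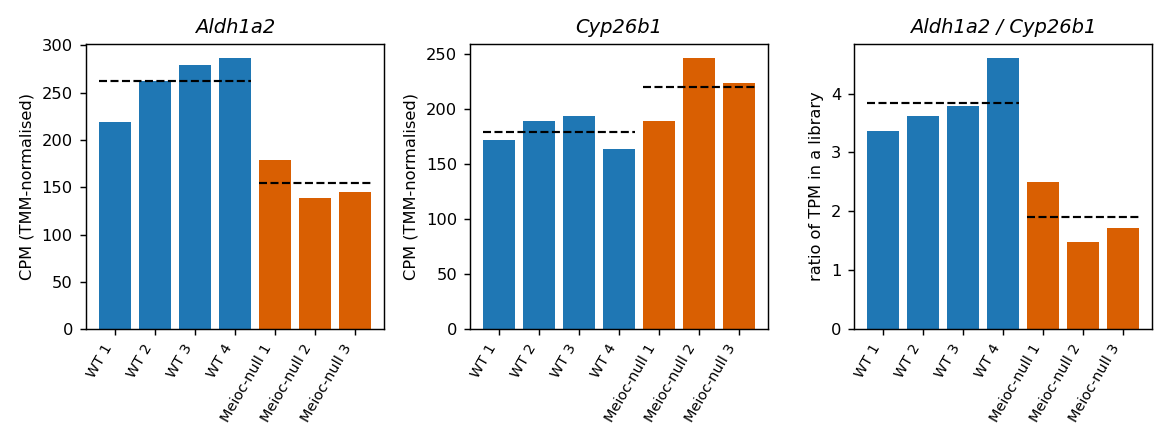
*Aldh1a2* and *Cyp26b1* in each library, in CPM after TMM normalization, and the ratio of their TPM, with dashed lines at the group means. *Aldh1a2* is lower and *Cyp26b1* mostly higher in the 3 *Meioc*-null libraries (orange), and the ratio is 3.37 or more in wild type (blue) and 2.50 or less in *Meioc*-null testes.

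Neither binding protein gene was called. *Crabp1* (chr9:54764748-54773110, plus strand), whose protein carries RA in the cytoplasm, was at 36.7, 32.4, 28.0 and 23.6 CPM in wild type and 34.4, 28.6 and 29.2 in *Meioc*-null testes. All 3 *Meioc*-null values lay inside the wild-type range. The log2 fold change was -0.033 (SE 0.15, 95% interval -0.36 to 0.30, adjusted p = 0.90), and it changed sign in 4 of 17 alternative fits.

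*Crabp2* (chr3:87948666-87953376, plus strand) encodes the binding protein that delivers RA to the RAR receptors in the nucleus. It was at 1.34, 2.94, 2.23 and 3.43 CPM in wild type and 1.33, 1.30 and 1.36 in *Meioc*-null testes. Wild-type replicate 1 was level with the *Meioc*-null libraries and the other 3 wild-type libraries were above them. The log2 fold change was 0.91, the highest of the 8 tested genes in the edgeR fit though below that of *Aldh1a2* on log2(TPM + 1) (0.46 against 0.52), with an SE of 0.32 and a 95% interval of 0.20 to 1.63, and it was not called (edgeR adjusted p = 0.091). These values rest on 17 to 68 counts per library. Without wild-type replicate 1 the gene was called (log2 fold change 1.11, adjusted p = 0.021).

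*Lrat* (chr3:82892579-82903973, minus strand), which makes the retinyl esters that testes store, was at 3.95, 3.08, 5.07 and 5.85 CPM in wild type and 4.38, 3.26 and 2.18 in *Meioc*-null testes. The ranges overlapped, with a log2 fold change of 0.46 (SE 0.29, 95% interval -0.19 to 1.11, adjusted p = 0.31).

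**Figure D4:**
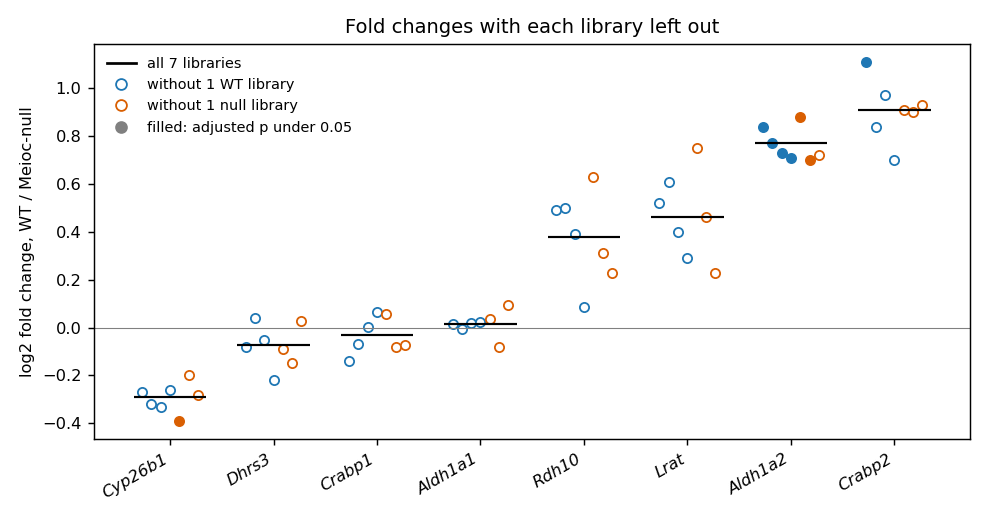
Log2 fold changes (wild type over *Meioc*-null) of the 8 tested genes with each library left out in turn, where black bars give the value with all 7 libraries and filled points have an adjusted p under 0.05 in that fit. *Aldh1a2* is filled in 6 of 7, *Cyp26b1* and *Crabp2* in 1 of 7 each, and *Aldh1a1*, *Dhrs3* and *Crabp1* lie on both sides of 0.

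Around these genes, 36 other genes of retinoid metabolism were taken as the wider pathway, and 17 of them were tested. By edgeR, 2 of the 17 were called, beside 11.1% of all tested genes, each with the higher level in wild type, and 0 were called in the other direction. At an unadjusted p under 0.05 there were 6 of 17, beside 30.3% of all tested genes, and the median log2 fold change was 0.0032. Which genes were called depended on the scaling. Limma on log2(TPM + 1) called 0 higher and 2 lower in wild type, and on log2(TPM + 0.1) 0 higher and 3 lower. *Stra6*, the cell-surface receptor that takes up retinol from its plasma carrier, rose in wild type. It was at 31.5, 47.6, 63.8 and 53.3 CPM in wild type and 35.5, 19.9 and 17 in *Meioc*-null testes, where only *Meioc*-null replicate 1 reached the wild-type range (log2 fold change 1.02, SE 0.28, adjusted p = 0.047). *Dgat1*, an acyltransferase that makes triglycerides and can also esterify retinol, rose too. It was at 23.5, 33.3, 34.9 and 42.7 CPM in wild type and 21.9, 19.5 and 18.5 in *Meioc*-null testes, with no overlap (log2 fold change 0.76, SE 0.18, adjusted p = 0.028). Each kept its call in 2 of the 7 fits that left out a library. Both stayed positive in all 17 alternatives (*Stra6* 0.76 to 1.42, *Dgat1* 0.46 to 0.89), though neither was called on the TPM scales. *Rdh9*, a short-chain dehydrogenase gene, had the most negative value of the 17 and was not called, at 0.883 ± 0.619 CPM in wild type and 2.55 ± 0.139 CPM in *Meioc*-null testes (log2 fold change -1.60, SE 0.52, adjusted p = 0.075), though it was called in 5 of 17 alternatives, among them DESeq2 on the same genes (adjusted p = 0.040) and the fit without wild-type replicate 1 (-2.04, 0.033). *Aldh1a3* was at 20.6 ± 1.14 and 23.2 ± 4.30 CPM (log2 fold change -0.18, adjusted p = 0.40). *Rdh7* and *Rdh19* were at 0 in all libraries.

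**Figure D5:**
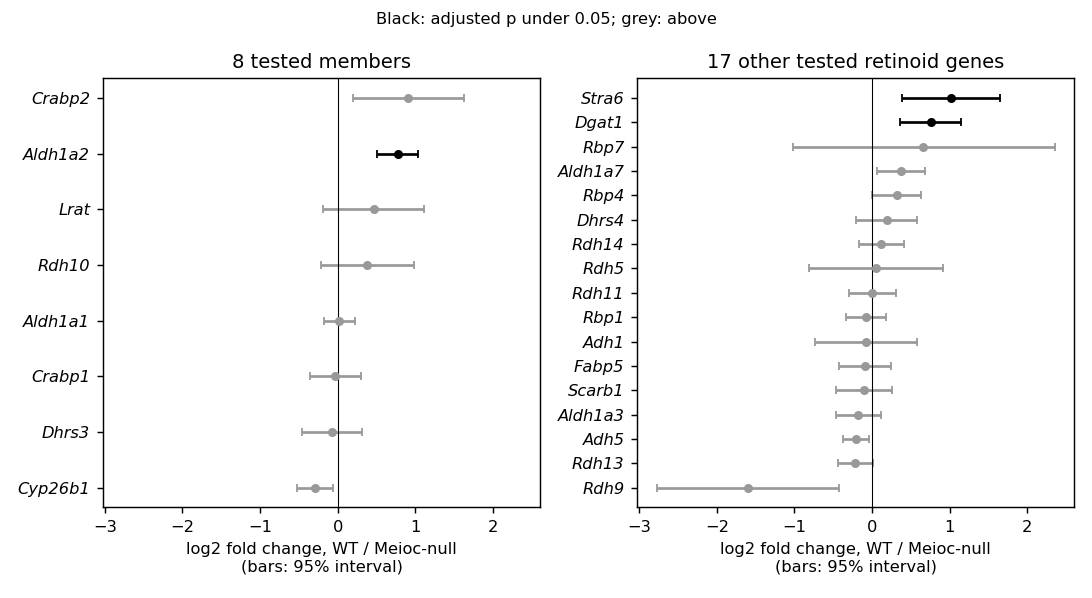
Log2 fold changes (wild type over *Meioc*-null) with 95% intervals for the 8 tested genes described above (left) and 17 other tested genes of retinoid metabolism (right), with black for an adjusted p under 0.05. *Aldh1a2* on the left and *Stra6* and *Dgat1* on the right are black and positive, and no gene is black and negative.

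Of the 6 RAR and RXR receptor genes, 4 were tested and 1 was called, lower in wild type, beside 3.33% of all tested genes. *Rxra*, a shared partner of the RA receptors, was at 43.2, 36.8, 40.2 and 41.3 CPM in wild type and 50.4, 68.1 and 48.6 in *Meioc*-null testes, with no overlap (log2 fold change -0.46, SE 0.12, adjusted p = 0.041), and kept its call in 2 of 7 fits without a library. *Rxrg* had 9 and 5 counts in all, a ratio of 1.49 with an interval of 0.448 to 5.65. Of 15 genes listed as responsive to RA, 12 were tested, and wild type had 2 called higher and 2 called lower, beside 7.77% and 3.33% of all tested genes. Those higher act in germ cells. *Meiosin* (listed as *Gm4969*), the partner of STRA8 in the meiotic gene program, was at 222 ± 54.6 CPM in wild type and 28.7 ± 4.67 CPM in *Meioc*-null testes (log2 fold change 2.95, adjusted p = 0.00058), and *Kit*, the receptor that marks differentiating spermatogonia, at 223 ± 28.1 and 152 ± 9.30 CPM (0.55, 0.018), a call kept in 3 of 7 fits without a library. Those lower were *Nrip1*, a nuclear receptor corepressor, at 98.6 ± 4.67 and 121 ± 7.77 CPM (-0.29, 0.043), and *Rarres1* at 7.08 ± 0.444 and 11.8 ± 1.55 CPM (-0.74, 0.017). Without a library, *Nrip1* kept its call in 1 of 7 fits and *Rarres1* in 4 of 7. *Stra8*, named here after its values were seen, was at 237 and 108 CPM on average and was not called (log2 fold change 1.14, SE 0.40, adjusted p = 0.095).

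The tested genes whose profile over the 7 libraries was most like that of *Aldh1a2* were *Parp12*, *Pemt* and *Nelfe*. Likeness was the root mean square difference of mean-centred log2 CPM, which was 0.057, 0.061 and 0.069, and all 3 were called higher in wild type, with log2 fold changes of 0.70, 0.75 and 0.70. Being chosen by profile over the libraries that were compared, they were bound to have fold changes near that of *Aldh1a2*. No gene of the retinoid lists was among these 3, which were taken from 13630 tested genes.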

How the data were processed

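Total RNA of testes was sequenced, 1 library per pup, and libraries were grouped by the genotype in their labels (wild type, n = 4, and *Meioc*-null, n = 3). The authors trimmed reads with cutadapt 1.8 and quantified them with kallisto 0.44.0 against GENCODE Basic vM15 transcripts (mm10). For every protein-coding transcript the authors deposited an estimated count, not normalized between libraries, and a TPM rescaled over those transcripts. The TPM total is identical in all libraries and keeps no depth.

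Ensembl transcript identifiers were assigned to genes with GENCODE vM21 (GRCm38), which lacked 119 of the 43139 (0.247% to 0.282% of counts, not used). Gene sums of the counts, rounded, went into edgeR 4.0.16 (R 4.3.3, quasi-likelihood, TMM, no covariates). Benjamini-Hochberg adjustment ran over the 13630 genes reaching 1 TPM in 3 or more of 7 libraries. The study used DESeq2, which served here as an alternative (1.42.0), as did limma 3.58.1 on log2(TPM + 1) and log2(TPM + 0.1), other normalizations and filters, a replicate block and leaving out each library. P-values measure the spread between these pups. The 95% intervals of log2 fold changes come from the same edgeR fit and include that spread. The Poisson intervals of *Cyp26a1*, *Rarb* and *Rxrg* and the floor (3 counts) cover counting error only, and no molecular identifiers were used. The authors added ERCC spike-ins to the samples, with a different mix for each genotype. These were not used for analysis by the authors or here.

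The members and gene lists were chosen with earlier results of these data known. Named genes are all 9 members, called or most and least changed genes of the other lists, *Meioc*, and the 3 genes with the profile most like that of a called member. *Stra8* and genes beside which a value was needed were added. Promoters came from RefSeq tables (GRCm38.p6), which held 7 of the 9 members, all 6 receptor genes, 27 of 36 other retinoid genes and 10 of 15 responsive genes.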

Additional observations from a re-analysis of the deposited data

How the results depend on the processing

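*Aldh1a2* was higher in wild type under all 17 alternatives (log2 fold change 0.52 to 0.88) and called under 15, all but the replicate block over replicates 1 to 3, which also leaves out wild-type replicate 4 (0.70, adjusted p = 0.072, against 0.71 and 0.027 without that library and with no block), and the fit without *Meioc*-null replicate 3. The number of genes called moved from 1513 to 2331 with DESeq2 on the same genes, 2522 with limma on log2(TPM + 1), 2506 on log2(TPM + 0.1) and 1008 after centring each library on its median, and ranged from 129 to 2177 when a library was left out. The lowest of these was without *Meioc*-null replicate 3. The share of calls higher in wild type was 70.0% in edgeR, 47.3% with library size only and 17.4% on log2(TPM + 1), where the median of all tested genes shifted to -0.23 (to -0.25 on log2(TPM + 0.1)). Called genes among the 9 rose from 1 to 2 with DESeq2 on the same genes, library size only, log2(TPM + 1) and log2(TPM + 0.1), by the addition of *Cyp26b1*, and ranged from 0 to 2 without a library. Of the other retinoid metabolism genes, 0 were called after centring and 0 to 3 without a library. Their calls, 2 higher and 0 lower in edgeR, became 2 and 1 with DESeq2 or library size only, 0 and 2 on log2(TPM + 1) and 0 and 3 on log2(TPM + 0.1). The 2 called higher in edgeR, *Stra6* and *Dgat1*, stayed positive under all 17 alternatives, so other genes made up the calls on the TPM scales. The labels do not say whether replicate numbers pair the samples. Correlations of same-numbered deviations were 0.023, -0.095 and -0.13, and those of differently numbered libraries ran from -0.11 to 0.15. Such weak values give no sign of pairing but cannot exclude it. With the replicate number as a block and no wild-type replicate 4, 108 genes were called, and 0 of the 9 and 0 of the other retinoid genes. Without that library and with no block, 548 genes were called. Signs turned for *Aldh1a1* with library size only (-0.061), log2(TPM + 1) (-0.23), log2(TPM + 0.1) (-0.23), centring (-0.022) and without a library (-0.083 to 0.096), for *Dhrs3* without a library (-0.22 to 0.039), and for *Crabp1* under the block (0.053) and without a library (-0.14 to 0.063). The cause of these changes was not tested. Depth limits *Cyp26a1*, *Rarb* and *Rxrg*, which lay near the floor of 3 counts.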

Other observations

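Some libraries were the lowest or highest of their group for several of these genes. Among wild-type libraries, replicate 1 was the lowest for *Aldh1a2* (219 CPM), *Crabp2* (1.34), *Stra6* (31.5), *Dgat1* (23.5), *Meioc* (468) and *Gm4969* (144). Among *Meioc*-null libraries, replicate 1 was the highest for *Aldh1a2* (179 CPM), *Rdh10* (33.6), *Lrat* (4.38), *Crabp1* (34.4), *Stra6* (35.5), *Dgat1* (21.9) and *Gm4969* (33.9). Without wild-type replicate 1 the log2 fold change of *Aldh1a2* was 0.84, and without *Meioc*-null replicate 1 it was 0.88. Other genes did not share this order, since *Crabp1* was highest in wild-type replicate 1 (36.7 CPM) and *Rdh10* (24.4) and *Lrat* (3.08) were lowest in wild-type replicate 2. These genes were listed after their values were seen, and no test was made of the pattern.

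Of the other retinoid metabolism genes, 3 were lower in every wild-type library than in any *Meioc*-null library without being called, *Rdh9*, *Adh5* and *Rdh13*. *Rdh9* was at 0.101 to 1.58 CPM in wild type and 2.40 to 2.68 in *Meioc*-null testes. *Adh5* was at 101 ± 4.58 CPM in wild type (n = 4) and 117 ± 6.57 in *Meioc*-null testes (n = 3), with an edgeR adjusted p of 0.098, and *Rdh13* was at 22.2 ± 1.98 and 25.8 ± 0.401 CPM, with an adjusted p of 0.18. Over all tested genes, 10.8% had every wild-type library below every *Meioc*-null library.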
